A study of Mus musculus with 10 samples.

Results

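The immediate early genes examined here are Fos, Fosb, Jun, Junb, Egr1, Atf3, Ier2, Ier3, Myc and Nr4a1, which were found by gene symbol and make up 10 of the 24537 genes counted in the hearts of young mice. Immediate early genes are transcribed within minutes of a growth signal, stretch, stress or tissue handling, without new protein synthesis, and their mRNAs are short lived. Kinases that reach the nucleus act on transcription factors already bound at these genes, and most of the products are transcription factors that switch on a later set of genes and the feedback genes that end the response. In heart they are known from pressure overload, ischemia and adrenergic stimulation.

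RNA was sequenced from heart tissue of 10 mice at 6 weeks of age. The 5 control mice were Rosa26-rtTA2+/-;TRE-SOD2-shRNA-/- and the 5 iSOD2 mice Rosa26-rtTA2+/-;TRE-SOD2-shRNA+/-, so that each mouse carried 1 copy of the reverse tetracycline transactivator and only iSOD2 mice carried the short hairpin RNA against Sod2, the mitochondrial superoxide dismutase. All pregnant dams ate doxycycline chow until birth, so controls met the drug as well, and the knockdown was confined to embryonic life. The transactivator is driven by the Rosa26 promoter and the hairpin lies at the Col1a1 locus, neither of which is specific to cardiac myocytes. Controls were 3 males and 2 females and iSOD2 mice 2 males and 3 females, from 2 labelled litters. Litter A gave 4 mice (3 males, 1 female) and litter B 6 mice (2 males, 4 females), with 2 and 3 mice of each genotype. Sex and litter were therefore partly aligned, and litter, mother and anything else the litters did not share cannot be told apart.

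Library totals over genes were between 16448090.5 and 24263085.5 counts, and none of the 45 pairs of libraries agreed within sampling noise. Ventricular myocyte markers, such as Myh6 and Myl2, were all present and summed to 4194070 to 5475590 normalized counts per heart. Sod2 had 9562 to 11019 normalized counts in controls and 10116 to 11305 in iSOD2 hearts (exact permutation test, p = 0.532), and since the knockdown had ended at birth this level checks no label.

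The members differed widely in abundance in these hearts, from Ier3 at the top to Fosb. Levels between genes are given as normalized counts per kilobase of exon (mean ± SD, n = 10 hearts). Ier3, which encodes a small stress-induced protein with roles in survival signaling, was the most abundant at 450 ± 94.2, and Jun, the basic leucine zipper partner of FOS in the AP-1 dimer, followed at 333 ± 55.2. Junb, a JUN relative, had 132 ± 27.0 and Nr4a1, an orphan nuclear receptor, 122 ± 81.0. Ier2, a nuclear protein of the early response, had 87.3 ± 14.7, close to the median of 78.8 over the 17728 genes tested. Atf3, a stress-induced AP-1 and ATF family factor, had 46.3 ± 20.4, Egr1, a zinc finger factor, 43.7 ± 15.9, and Fos 36.0 ± 23.9. Myc, the growth-promoting factor that pairs with MAX, had 20.01 ± 5.60 and Fosb, a FOS relative, 1.76 ± 1.23.

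Some neighbors in this order were separated in every heart and others were not. Jun was above Junb, and Myc above Fosb, in 10 of 10 hearts, and Ier2 was above Atf3 in 9 of 10. Junb against Nr4a1 and Nr4a1 against Ier2 held in 5 of 10 hearts, Atf3 against Egr1 in 6, and Ier3 against Jun, Egr1 against Fos and Fos against Myc in 7. Fosb rested on few reads, with deposited counts of 1 to 12.5 per heart, so its values carry a large counting error.

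The genes have compact transcripts that bear on how they were counted. In mm10 coordinates, Fos (NM_010234) spans chr12:85473901-85477270 with 4 exons, Fosb (NM_008036) chr7:19302696-19310045 with 4, Atf3 (NM_007498) chr1:191170297-191183333 with 4, Myc (NM_001177352) chr15:61985341-61990361 with 3 and Nr4a1 (NM_010444) chr15:101266846-101274794 with 7. Ier3 (NM_133662) spans chr17:35821713-35822911 with 2 exons, and Egr1 (NM_007913) has 3 exons. Jun (NM_010591, chr4:95049036-95052222), Junb (NM_008416, chr8:84976909-84978748) and Ier2 (NM_010499, chr8:84661331-84662852) have 1 exon each, so reads of unspliced RNA cannot be set apart from reads of mRNA. The Jun exon overlaps exons of Junos on the opposite strand in GENCODE, and since the counting command gave no strand option, reads of the 2 genes cannot be told apart.

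RefSeq promoter windows of build GRCm38.p6, from 250 bases before to 50 bases after the start site, were searched for 7 members (Fos, Fosb, Jun, Junb, Atf3, Nr4a1 and Ier3). Egr1, Ier2 and Myc were not searched. They are shown for Fos and for the 3 members with a window that were highest in the same hearts as Fos, as described further on, written 5′ to 3′ on the strand of the gene, with TATAAA and GCGNGGGCG matches in capitals.

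Fos (chr12:85473640-85473939, plus strand): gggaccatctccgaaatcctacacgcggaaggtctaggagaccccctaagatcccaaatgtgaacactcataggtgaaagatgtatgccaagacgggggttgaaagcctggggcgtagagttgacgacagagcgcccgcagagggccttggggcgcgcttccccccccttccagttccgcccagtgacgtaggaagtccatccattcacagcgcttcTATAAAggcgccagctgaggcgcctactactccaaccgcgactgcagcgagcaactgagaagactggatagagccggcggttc
Junb (chr8:84978699-84978998, minus strand): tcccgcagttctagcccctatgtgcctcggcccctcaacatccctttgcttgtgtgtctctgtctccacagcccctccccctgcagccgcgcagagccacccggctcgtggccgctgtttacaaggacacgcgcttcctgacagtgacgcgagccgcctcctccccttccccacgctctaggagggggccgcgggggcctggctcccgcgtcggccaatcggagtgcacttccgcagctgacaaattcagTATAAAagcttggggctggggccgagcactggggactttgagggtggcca
Nr4a1 (chr15:101266596-101266895, plus strand): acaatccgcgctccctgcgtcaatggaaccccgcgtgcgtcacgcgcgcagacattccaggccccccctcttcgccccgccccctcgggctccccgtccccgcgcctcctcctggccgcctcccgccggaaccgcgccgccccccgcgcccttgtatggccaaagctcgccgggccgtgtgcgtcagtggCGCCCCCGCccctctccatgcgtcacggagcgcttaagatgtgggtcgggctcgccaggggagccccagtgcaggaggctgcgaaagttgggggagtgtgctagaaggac
Fosb (chr7:19309996-19310295, minus strand): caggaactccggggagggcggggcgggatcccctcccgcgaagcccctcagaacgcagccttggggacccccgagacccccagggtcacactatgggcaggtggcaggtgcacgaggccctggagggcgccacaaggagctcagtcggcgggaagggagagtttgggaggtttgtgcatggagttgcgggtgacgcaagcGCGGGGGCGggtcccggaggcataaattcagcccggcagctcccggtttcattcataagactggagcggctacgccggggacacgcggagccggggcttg

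TATAAA was found in the Fos window, with its first base at position -33, and in the Junb window at position 1, and in 13.6% of all 32544 windows. The EGR site GCGNGGGCG, read on both strands, was found in the Fosb window at position -50 and in the Nr4a1 window at position -60, and in 5.6% of all windows. The other motifs searched had matches in 0 of the 7 member windows. These were the CArG box of serum response factor (1.64% of all windows), TGACGTCA (1.8%), TGANTCA (7.79%), AAAGGTCA (1.52%) and CACGTG (7.17%). No motif searched contains another, and a match or its absence is a description of the sequence only. Exact matches within these windows were counted, so sites farther from the start site or with other bases were not sought.

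The first comparison asked whether these genes still differed between genotypes at 6 weeks, after knockdown had ended at birth. Of the members, 1 of 10 was called, Ier3, which was higher in iSOD2 hearts, and the other 9 were not. The call required an adjusted p of at most 0.05 and an absolute log2 fold change above 0.25 with DESeq2, and 2.96% of the 9479 genes with an adjusted p were called, while 1.27% of the 9479 were called higher. Adjusted p-values existed for 4 of the 10 members only (Jun, Junb, Ier3 and Nr4a1), because the independent filtering of DESeq2 removed genes of lower count. By unadjusted p under 0.05, 1 of 10 members passed, against 13.2% of all genes tested, and the genotypes did not overlap in 0 of 10 members, against 3.75% of all genes.

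Ier3 had 468, 399, 366, 527 and 330 normalized counts in controls 1, 2, 3, 4 and 6, and 659, 546, 524, 473 and 590 in iSOD2 mice 5, 7, 8, 9 and 10. Every iSOD2 heart lay above 4 of the controls, and control 4 lay above iSOD2 mice 8 and 9, so the groups overlapped. The mean of 558 ± 70.0 in iSOD2 hearts against 418 ± 79.6 (SD, n = 5 each) gave a difference of 0.42 on the log2 scale (SE 0.13, adjusted p = 0.0262 in DESeq2). The exact permutation test gave p = 0.0238, within litters p = 0.0333 and within sexes p = 0.02. The difference was 0.30 in litter A, 0.49 in litter B, 0.31 in males and 0.46 in females. The call was lost in edgeR (adjusted p = 0.137), with sex as a covariate (0.0512), after removal of each library's trend with exon length (0.320, log2 fold change 0.29), and without any of 6 mice (controls 2, 3 and 6, iSOD2 mice 5, 7 and 10; adjusted p = 0.0521 to 0.149). Over 20 alternatives with an adjusted p it ran from 0.00133 to 0.738. Each library's slope on log2 exon length was 0.0063 to 0.053 in controls and -0.051 to -0.018 in iSOD2 mice. The genotypes did not overlap in this slope, and a negative slope goes with relatively higher levels of short genes. Ier3, with 1086 bases of exon, was the shortest member. The part of exon length in its call was not tested further. Across the whole table edgeR called 0 genes between genotypes, with 2718 at an unadjusted p under 0.05.

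The AP-1 genes did not pass. Jun had 1217, 1241, 1154, 1008 and 1123 normalized counts in the controls and 834, 1233, 732, 1121 and 948 in the iSOD2 mice, in the order above. iSOD2 mice 5, 8 and 10, all females, lay below every control, and iSOD2 mice 7 and 9, both males, lay within the control range. The log2 fold change was -0.24 (SE 0.12, adjusted p = 0.256 in DESeq2; exact permutation p = 0.119, and 0.04 within sexes). Fos differed by -0.15 (SE 0.62), Fosb by -0.44 (SE 0.68) and Junb by -0.071 (SE 0.17) on the log2 scale, each within its error.

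The other members were not called for genotype. Egr1 ranged from 92.8 to 189 normalized counts in controls and from 76.0 to 196 in iSOD2 mice (log2 fold change -0.33, SE 0.35; exact permutation p = 0.286). With litter as a covariate it differed by -0.40, with no adjusted p, and the exact permutation test within litters gave p = 0.05. Nr4a1 ranged from 97.8 to 635 and from 115 to 496 (log2 fold change -0.16, SE 0.64). Atf3 differed by -0.077 (SE 0.31), Ier2 by 0.10 (SE 0.16) and Myc by 0.38 (SE 0.24). Over the 10 members the median log2 fold change was -0.11, beside a value near 0 over all genes, with 3 members higher and 7 lower. Markers of other cell types also moved with genotype. All 10 hepatocyte markers were higher in iSOD2 hearts (summed level 127 to 11196 in controls, 5664 to 22056 in iSOD2, no marker at 0), all 5 atrial markers were higher (517 to 2123 against 635 to 7656) and all 6 erythroid markers lower (60950 to 120460 against 57530 to 83474). The low end of 127 came from control 1, whose mean log2 hepatocyte level was 3.26, against 7.45 to 9.89 in every other heart. The atrial sum of 7656 came from iSOD2 mouse 8. With the hepatocyte level as a covariate Ier3 differed by 0.49 (adjusted p = 0.0436 in DESeq2); the part of the other markers was not tested. Fewer cells of a type and less RNA per cell cannot be told apart in bulk heart tissue.

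The second comparison set litter B against litter A with genotype as a covariate. Littermates are not replicates of a litter, so its p-values compare these mice only. Fos, Egr1 and Junb were lower in litter B, and no member was called higher. That is 3 of 10 members, against 3.50% of the 15654 genes with an adjusted p, of which 0.977% were called lower. By unadjusted p under 0.05, 6 of 10 members passed, all of them lower in litter B, against 13.0% of all genes, and the litters did not overlap for 2 of 10 members (Fos and Egr1), against 4.10% of all genes. With sex added 4 of 10 members had an unadjusted p under 0.05 (1837 genes over the whole table).

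Fos had 127, 153, 149 and 81.1 normalized counts in the 4 litter A hearts (controls 1 and 2, iSOD2 mice 7 and 8), and 37.6, 39.5, 38.4, 38.0, 65.5 and 22.6 in the 6 litter B hearts (controls 3, 4 and 6, iSOD2 mice 5, 9 and 10). Every litter A heart was above every litter B heart. The means were 127 ± 33.0 and 40.3 ± 13.9 (SD, n = 4 and 6), a 3.15-fold lower level in litter B (log2 fold change -1.65, SE 0.25, adjusted p = 1.49e-08 in DESeq2). The exact permutation test gave p = 0.00476, the smallest it can give. Fos was lower in litter B without each mouse in turn (log2 fold change -1.88 to -1.52, called in 10 of 10) and with sex added (-1.36, adjusted p = 4.20e-07). It was -1.85 among controls and called, -1.45 among iSOD2 mice (adjusted p = 0.0659), -1.45 among males and called, and -1.23 among females, of whom only iSOD2 mouse 8 came from litter A. Over 19 alternatives with an adjusted p it ran from 7.65e-14 to 0.0659.

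**Figure D1:**
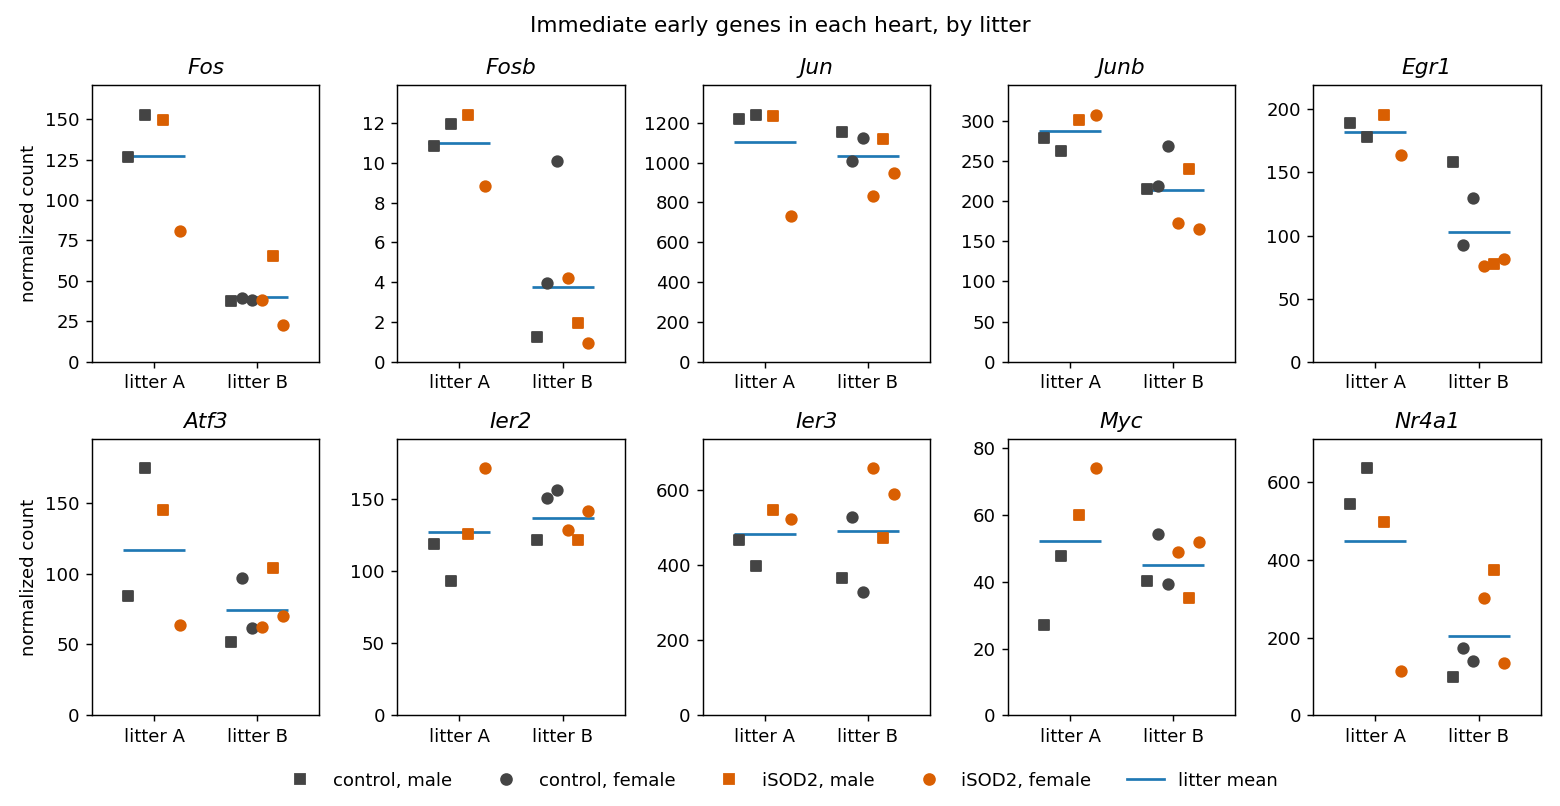
Normalized counts of the 10 members in each heart (vertical axis, from 0) by litter (horizontal axis), with genotype as color, sex as shape and the litter mean as a line. Fos and Egr1 do not overlap between litters, with Fos at 81.1 to 153 in litter A and 22.6 to 65.5 in litter B.

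Egr1 showed the same order with a smaller difference. It had 189, 178, 196 and 164 normalized counts in the litter A hearts and 158, 92.8, 130, 76.0, 77.3 and 81.1 in the litter B hearts, in the mouse order used for Fos. Control 3, at 158, was the highest of litter B and lay just below iSOD2 mouse 8. The means were 182 ± 13.9 and 102 ± 33.8 (SD, n = 4 and 6; log2 fold change -0.87, SE 0.17, adjusted p = 2.92e-05 in DESeq2; exact permutation p = 0.00952). The call held without each mouse in turn (10 of 10) and with sex added (-0.81, adjusted p = 0.00124). Within genotypes it was -1.20 among iSOD2 mice (called) and -0.54 among controls (adjusted p = 0.414). Among males alone Egr1 was not called, and the only female of litter A was iSOD2 mouse 8. Over 20 alternatives the adjusted p ran from 1.61e-07 to 0.625.

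Junb, whose call was less stable, had 279, 263, 301 and 308 normalized counts in litter A and 216, 219, 269, 172, 240 and 166 in litter B. Control 6 of litter B lay above control 2 of litter A, and the other hearts did not overlap. The means were 288 ± 20.9 and 214 ± 39.5 (SD, n = 4 and 6; log2 fold change -0.44, SE 0.13, adjusted p = 0.0254 in DESeq2; exact permutation p = 0.0238). The call was lost with sex added (adjusted p = 0.0838), in edgeR (0.0841) and without any of 7 mice, and over 20 alternatives the adjusted p ran from 0.00469 to 0.967.

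Fosb, Atf3 and Nr4a1 did not pass adjustment. Fosb had 8.82 to 12.4 normalized counts in litter A and 0.94 to 10.1 in litter B (log2 fold change -1.59, SE 0.59, adjusted p = 0.110 in DESeq2; exact permutation p = 0.019). Nr4a1 had 115 to 635 in litter A and 97.8 to 373 in litter B (log2 fold change -1.21, SE 0.56, adjusted p = 0.266), and its low value of litter A was iSOD2 mouse 8, the only female there. That mouse also had the highest atrial marker sum, 7656, against at most 2750 in litter B. The part of the atrial markers was not tested. Among control mice alone, 2 from litter A and 3 from litter B, Nr4a1 was called lower in litter B (-2.10, adjusted p = 6.97e-21 in DESeq2). Both litter A controls were male, and so few hearts cannot bear out a p of that size. Over all hearts the exact permutation test gave p = 0.105. Among iSOD2 mice alone Nr4a1 differed by -0.18. Without iSOD2 mouse 8 Nr4a1 and Atf3 were called as well and Junb was not, making 4 members. Atf3 differed by -0.64 (SE 0.27, adjusted p = 0.187). Among females alone Nr4a1 and Atf3 turned to 0.71 and 0.19. Jun, Ier2, Ier3 and Myc lay between -0.18 and 0.10.

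Cell type markers also moved with litter. Endothelial markers summed to 16973 to 18966 normalized counts in litter A and 19350 to 21598 in litter B, with 4 of 5 higher in litter B. Smooth muscle and pericyte markers summed to 17084 to 19188 and 19632 to 25327, with 3 of 5 higher and 2 lower. Neither sum overlapped between litters, but a sum is weighted toward its most abundant markers. All 6 macrophage markers were higher in litter B, with sums that overlapped (4811 to 6099 and 4739 to 6949). Of the ventricular markers 7 of 8 were lower in litter B (4563070 to 5475590 in litter A, 4194070 to 4632390 in litter B), and all 6 erythroid markers (summed level 57530 to 69975 in litter A, 58513 to 120460 in litter B) and all 10 hepatocyte markers (127 to 14156, 6031 to 22056) were higher. Neutrophil markers, with 4 of 5 lower in litter B, rested on few reads and summed to 21.5 to 36.2 in litter A and 8.44 to 22.7 in litter B. The hepatocyte low end of 127 was control 1. No marker of these lists was at 0 in all hearts. With the hepatocyte level as a covariate Fos was -1.55 (adjusted p = 0.000233) and Egr1 -1.0 (adjusted p = 0.000699) in DESeq2, both called, and Junb was not. The part of the other markers was not tested.

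The third comparison was between sexes, with genotype as a covariate. Jun was lower in females and was the only member called, 1 of 10 against 0.420% of the 17379 genes with an adjusted p, of which 0.213% were called lower. By unadjusted p under 0.05, 6 of 10 members passed, against 6.60% of all genes. With litter added 3 of 10 members passed that level (945 genes over the whole table). Within litter B alone 0 of 10 did (444 genes), over fewer hearts. The count of 6 thus depended on the partial alignment of sex with litter or on the hearts used. For 1 member, Ier2, the sexes did not overlap, against 1.75% of all genes.

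Jun had 1217, 1241, 1154, 1233 and 1121 normalized counts in males (controls 1, 2 and 3, iSOD2 mice 7 and 9) and 1008, 1123, 834, 732 and 948 in females (controls 4 and 6, iSOD2 mice 5, 8 and 10). Only control 6 reached the lowest male. The means were 1193 ± 53.0 and 929 ± 152 (SD, n = 5 each; log2 fold change -0.33, SE 0.09, adjusted p = 0.0401 in DESeq2; exact permutation p = 0.0159). The call held with litter added (-0.37, adjusted p = 0.0268) and was lost in edgeR (0.244), with the hepatocyte level as a covariate (0.114), within litter B (-0.22) and without any of 7 mice. All 10 hepatocyte markers were higher in females (summed level 127 to 11394 in males, 6031 to 22056 in females), as were all 5 atrial markers (517 to 2123 in males, 793 to 7656 in females). The low end of 127 was again control 1, and the 7656 was iSOD2 mouse 8. Of the ventricular markers 7 of 8 were lower in females (4547430 to 5475590 in males, 4194070 to 4569920 in females), and all 5 neutrophil markers were lower (19.6 to 28.0 in males, 8.44 to 36.2 in females). The part of the atrial, ventricular and neutrophil markers was not tested.

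Ier2 went the other way, without a call. Females had 128 to 171 normalized counts and males 93.1 to 125 (log2 fold change 0.35, SE 0.14, adjusted p = 0.392 in DESeq2; exact permutation p = 0.00794, the smallest it can give). Fos and Nr4a1 differed by -1.31 (SE 0.50) and -1.35 (SE 0.51), each with an adjusted p of 0.381, and with litter added Fos moved to -0.69 and Nr4a1 to -0.97. Without control 3, the male with the lowest Nr4a1, 4 members were called lower in females (Fos, Atf3, Nr4a1 and Jun), so this count rested on single mice.

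**Figure D2:**
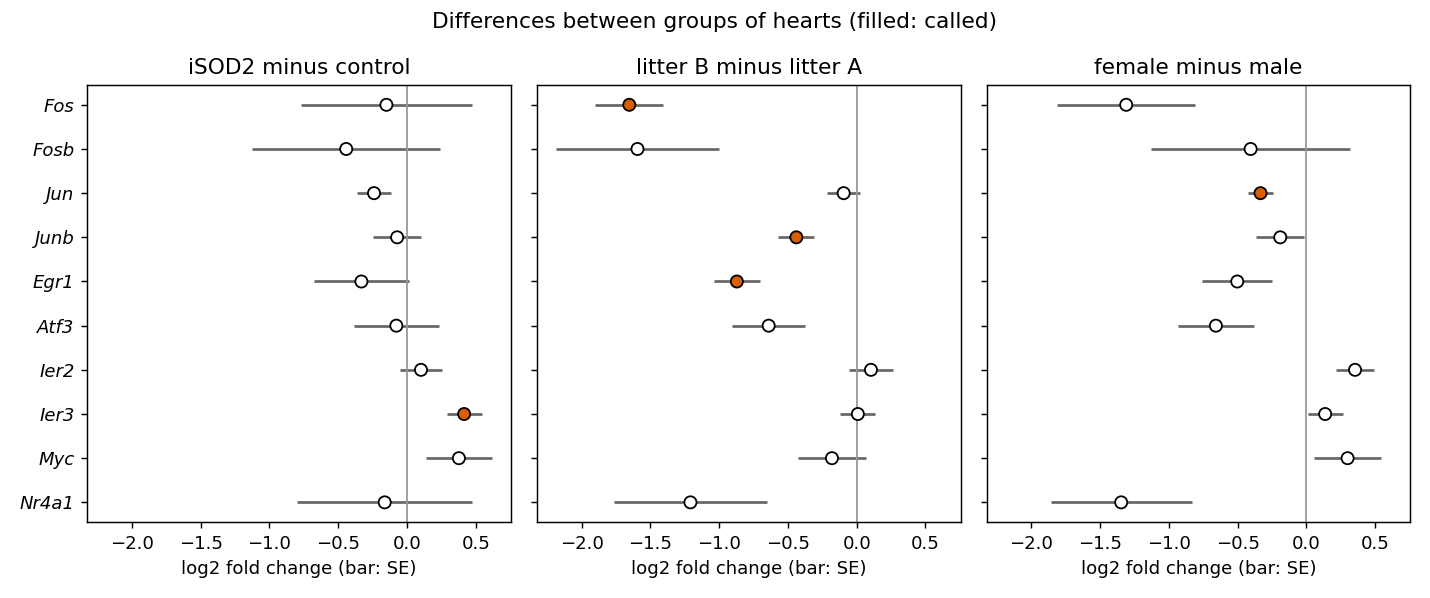
Log2 fold change of each member (horizontal axis) with its standard error as a bar, for the genotype, litter and sex comparisons, with called members filled. Ier3 is filled for genotype, Fos, Junb and Egr1 for litter and Jun for sex.

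Neither interaction gave a call. The genotype difference differed between sexes for 0 of 10 members at an unadjusted p under 0.05, against 1.18% of all genes. Between litters 3 of 10 members had an unadjusted p under 0.05, against 1.79% of all genes, and none passed adjustment. These were Egr1, whose genotype difference was -0.66 (SE 0.31) in litter B relative to litter A, Ier2 (-0.62, SE 0.31) and Nr4a1 (1.93, SE 0.95). edgeR called 0 members in either interaction, with 0 and 4 members at an unadjusted p under 0.05.

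The spread between mice was wide for several members. The gene-wise dispersion of DESeq2, a measure of spread between hearts of 1 genotype, lay above the trend fitted over all genes for 10 of 10 members, beside 19.7% of all genes. It was 43.0 times the trend for Nr4a1, 14.5 times for Fos, 7.04 times for Egr1 and 6.53 times for Atf3. Jun, Junb and Ier3 lay at 3.67, 3.56 and 2.67 times, and Fosb, Ier2 and Myc at 1.67, 1.15 and 1.07 times, while the median gene lay at 0.344. With litter in the model the ratio was 3.14 for Fos and 1.78 for Egr1, but still 34.8 for Nr4a1. It was 5.27 for Atf3, 4.48 for Jun, 3.43 for Ier3, 1.77 for Junb, 1.37 for Ier2 and 1.19 for Myc. Fosb, at 0.389, then lay below the trend. The SD of log2(normalized count + 1) within genotype was 1.01 for Fos and 1.07 for Nr4a1, beside a median of 0.170 over all genes tested.

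**Figure D3:**
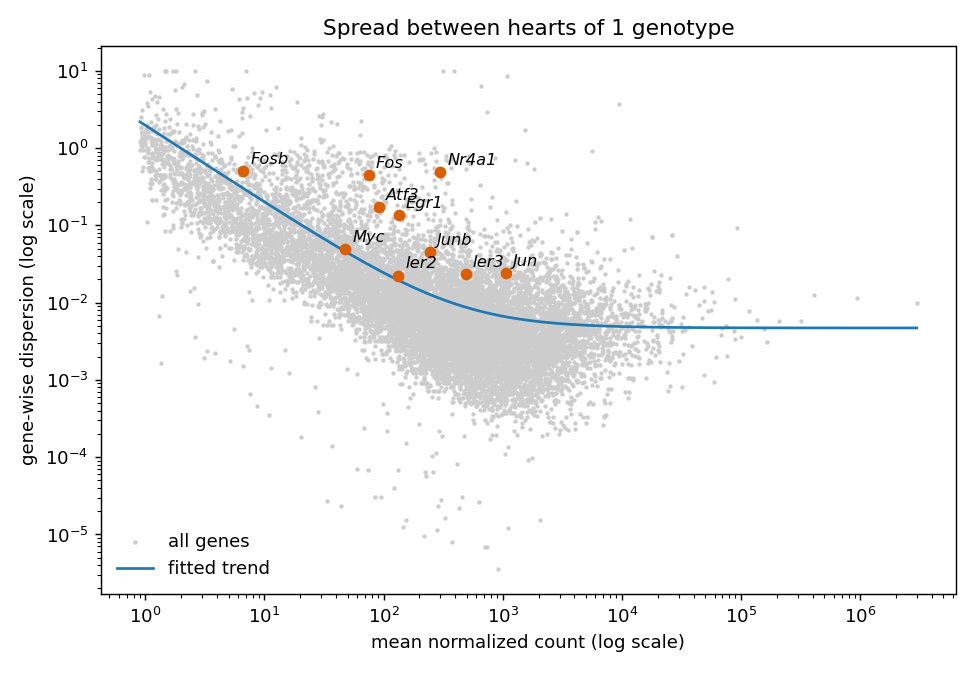
Gene-wise dispersion (vertical axis, log scale) against mean normalized count (horizontal axis, log scale) for all genes in gray, with the fitted trend as a line and the members labeled. Nr4a1 stands 43.0 times and Fos 14.5 times above the trend.

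Several members were high in the same hearts as Fos. Across the 10 hearts, on log2(normalized count + 1), 5 of the 9 other members correlated with Fos at an adjusted p of 0.0416 by permutation test, with Pearson's r of 0.78 for Junb, 0.76 for Nr4a1, 0.76 for Fosb, 0.73 for Egr1 and 0.72 for Atf3. Spearman's rho was 0.77, 0.75, 0.84, 0.71 and 0.75 (adjusted p of 0.0325 to 0.0493 by permutation test). Without the 2 hearts farthest from the Fos median, iSOD2 mouse 7 and control 2, r was 0.77, 0.58, 0.63, 0.59 and 0.34, the last for Atf3.

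The pooled r includes the litter difference. Within the 6 hearts of litter B, r with Fos was 0.64 for Nr4a1, 0.63 for Junb, 0.50 for Atf3, 0.21 for Fosb and -0.071 for Egr1. After the means of each genotype and litter were subtracted, r was 0.86 for Nr4a1, 0.64 for Atf3, 0.62 for Junb, 0.28 for Fosb and 0.031 for Egr1. Fos and Egr1 both differed by litter, while their r within litter B was near 0 over 6 hearts, and litter A has too few hearts for a value. Jun (r = 0.42), Ier2 (-0.50), Ier3 (-0.11) and Myc (-0.043) did not correlate with Fos at an adjusted p under 0.05 by permutation test. Of the 45 pairs of members, 12 had r above 0.5, 14 had r below 0 and the median was 0.20. Total counts, hepatocyte level and the slope on exon length had r of 0.062, -0.55 and 0.32 with Fos (adjusted p of 0.864, 0.202 and 0.532 by permutation test over 3 relations).

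**Figure D4:**
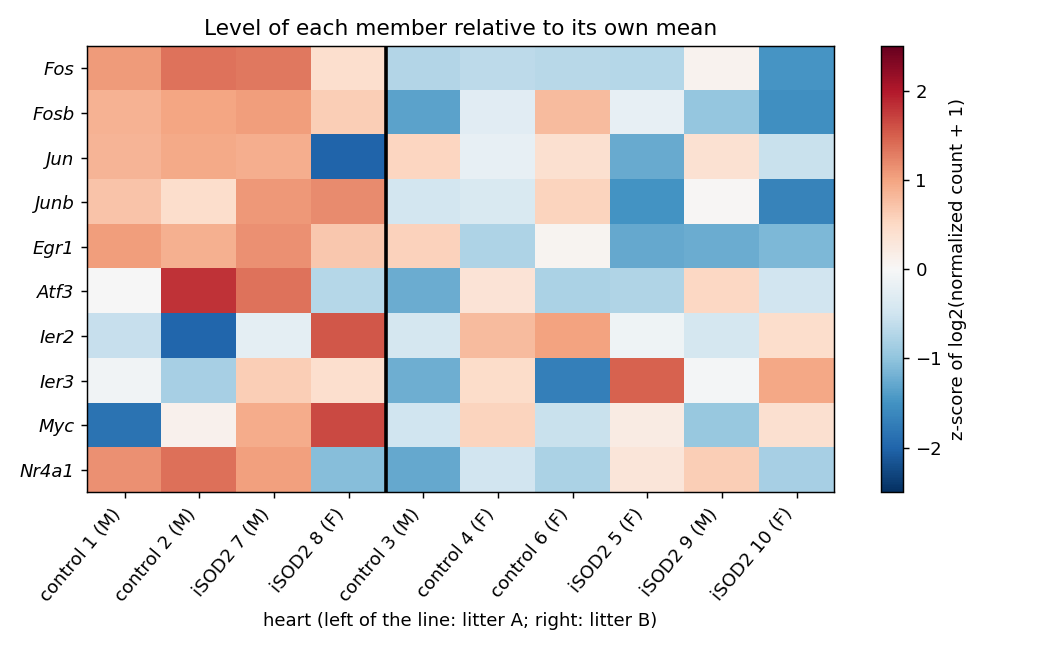
Level of each member in each heart (rows, genes; columns, hearts, with sex in brackets) as a z-score of log2(normalized count + 1), with the line parting litter A from litter B. Fos, Fosb, Junb and Egr1 are above their own mean in all 4 litter A hearts, whereas Jun and Nr4a1 are low in iSOD2 mouse 8.

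The genes most like Fos over the 10 hearts, among the 12151 whose normalized counts averaged 50 or more, were not immediate early genes of the fixed lists. They were Nr3c2, the mineralocorticoid receptor (r = 0.97), Alox5, a leukotriene-forming lipoxygenase (0.97), Gm10635 (0.96), Mr1, an antigen-presenting molecule (0.95), Tbcel (0.94), Usp5, a deubiquitinase (0.94), Pkp2, a desmosome protein (0.93), Pdxdc1 (0.93), B3galt2 (0.93) and Irx4, a ventricular transcription factor (0.93). These r are the highest of 12151 genes and carry no test. All 10 had a higher mean in litter A than in litter B, such as Nr3c2 with 1535 and 1231 normalized counts. They were picked by likeness to Fos, which did not overlap between litters, so that direction follows from the choice.

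Of 42 other immediate early genes 41 were tested, and the calls were 1 of 27 with an adjusted p for genotype (2.96% of all genes), 3 of 40 for litter (3.50%) and 2 of 40 for sex (0.420%). For genotype it was Cebpb, a leucine zipper factor of the stress response, higher in iSOD2 hearts (log2 fold change 0.63, SE 0.18, adjusted p = 0.0171 in DESeq2). Its normalized counts averaged 249 ± 76.1 in the control group and 386 ± 85.4 in the iSOD2 group (SD, n = 5 each). Gadd45b and Gadd45g, stress and growth arrest genes, had log2 fold changes of 0.59 (SE 0.30) and 0.49 (SE 0.18) without an adjusted p. For litter, Ctgf, a matricellular growth factor (0.29), and Gadd45g (0.47) were higher and Pim1, a kinase gene (-0.41), lower in litter B. For sex, Btg2, an antiproliferative gene (-0.55), and Phlda1 (-0.57) were lower in females. The list medians of the log2 fold change were -0.042 for genotype, -0.043 for litter and -0.062 for sex, beside values near 0 over all genes.

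Of 29 kinases and promoter-bound activators, 0 of the 27 with an adjusted p were called for genotype in DESeq2, with 5 of 29 at an unadjusted p under 0.05, all lower, against 13.2% of all genes. For litter 1 of 29 was called against 3.50% of all genes, Myocd, a cofactor of serum response factor in muscle (log2 fold change -0.25, adjusted p = 0.0228), and for sex 0 of 29 (3 at an unadjusted p under 0.05, against 6.60% of all genes). Its relative Mkl1 had a genotype log2 fold change of -0.26 (adjusted p = 0.0912), Crtc1 -0.21 (0.287) and Myocd -0.21 (0.226). Of 24 negative feedback genes 18 had an adjusted p for genotype and 1 was called, against 2.96% of all genes. This was Spred2, an inhibitor of the RAS to ERK pathway, which was lower in iSOD2 hearts (-0.30, SE 0.09, adjusted p = 0.0230), while Nfkbia (0.26, adjusted p = 0.310) and Ppp1r15a (0.22, adjusted p = 0.367) did not pass, and 0 of 24 were called for litter or sex (5 and 2 at an unadjusted p under 0.05, against 13.0% and 6.60% of all genes).

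The dimer partners and later targets gave no call in DESeq2, but for genotype an adjusted p existed for 12 of 18 AP-1 and ATF partners, 8 of 11 MYC network genes and 4 of 16 later targets tested, so the others could not be called. The shares of all genes at an unadjusted p under 0.05 were 13.2% for genotype, 13.0% for litter and 6.60% for sex. Of the 18 AP-1 and ATF partners 3 passed that level for genotype, all lower, 2 for litter and 4 for sex. Among those with a mean of at least 50 the largest genotype differences were in Maf (-0.25), Fosl2 (-0.25) and Atf7 (-0.24, adjusted p = 0.0540). Of the 11 genes of the MYC network 3 had an unadjusted p under 0.05 for genotype, 4 for litter and 1 for sex. Mycn (-0.34), Mxd4 (0.21) and Mxi1 (0.19) differed most between genotypes among those with a mean of at least 50. Of the 18 delayed and secreted targets 16 were tested, with 3 at an unadjusted p under 0.05 for litter, 2 for sex and 1 for genotype, Thbs1, a matrix glycoprotein (-0.45, adjusted p = 0.0767), with Vegfa at -0.11.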

How the data were processed

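Heart RNA libraries were prepared by the authors from total RNA with ribosomal RNA depleted, aligned to mm10 with STAR and summed over exons with HOMER, with 1 transcript kept per gene. The deposited values are estimated counts in steps of 0.5, not normalized, beside another unit, exon length in base pairs, in the deposited table. Values were rounded, genes with fewer than 10 summed counts removed (17728 kept), and groups compared with DESeq2 1.42.0 in R 4.3.3 (Wald test, median-of-ratios size factors, Benjamini-Hochberg adjustment over all genes, adjusted p at most 0.05 and absolute log2 fold change above 0.25). Litter and sex fits held genotype as a covariate. Single members were tested with two-sided exact permutation tests on log2(normalized count + 1), and correlations with 100000 permutations. edgeR 4.0.16, other scalings, filters, covariates and subsets of mice were alternatives. The script was tested on simulated data. Members and lists were chosen with earlier results of these data known. Named genes were all members, list genes called (at most 5 a comparison), the 3 list genes with the largest genotype change and a mean of at least 50, and the 10 most like Fos or the members' mean z-score; some that the rule names are not reported here. Libraries held 16448090.5 to 24263085.5 counts, and p-values set differences against the spread between these mice. Spread between litters does not enter the litter p-values.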

Additional observations from a re-analysis of the deposited data

Results flagged for a closer look

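Within each litter, sex and genotype the members were checked for a heart standing apart from the rest of its group (Dixon's ratio). Of 60 groups checked 5 held such a heart, where chance gives about 3 (1 in 20), and no explanation was tested.

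Fos in iSOD2 mouse 8, the only litter A female, was 81.1 normalized counts, above the other 4 females. Jun in the same mouse was 732, below the other 3 hearts of litter A. Fosb in control 6 was 10.1, above the other 5 hearts of litter B, on a gene with few reads. Atf3 in control 4 was 96.8, above the other females. Ier2 in control 2 was 93.1, below the other males.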

How the results depend on the processing

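No paired analysis was possible because the genotypes share no replicate number; litter, which holds both genotypes, served as a covariate and as the stratum of a permutation test. The cause of the changes below was not tested. Counts of members called moved as follows. For genotype (1 in the main result) the count was 0 in edgeR, with sex as a covariate, with the exon length trend removed, and within litter A, litter B, females and males, and 0 to 1 without each mouse in turn. A separate count, of members with an unadjusted exact permutation p of at most 0.05 for genotype (1), was 2 when permuted within litter, where Egr1 lay at 0.05, 2 within sex, and 0 to 2 without each mouse. For litter the count called (3) was 2 in edgeR, with sex added, with the hepatocyte covariate and among control mice. It was 1 among iSOD2 mice, 1 among males and 2 to 4 without each mouse. For sex (1) it was 0 in edgeR, with the hepatocyte covariate, among control mice, among iSOD2 mice and within litter B, and 0 to 4 without each mouse. Over all genes edgeR called 0, 365 and 29 for genotype, litter and sex, where DESeq2 called 281, 548 and 73.

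Directions that turned were of members that were not called. Genotype log2 fold changes turned as follows: with sex as a covariate, Fos 0.15 and Nr4a1 0.13; with litter, Nr4a1 0.22; with both, Fos 0.024 and Nr4a1 0.20; with the hepatocyte covariate, Fos 0.61, Fosb 0.24, Junb 0.082, Atf3 0.098 and Nr4a1 0.73; in females, Fos 0.28, Ier2 -0.060 and Nr4a1 0.23; in males, Fos 0.023, Junb 0.097, Atf3 0.27 and Nr4a1 0.033; in litter A, Junb 0.17; in litter B, Fos 0.12, Atf3 0.16, Ier2 -0.14 and Nr4a1 0.98. Litter values turned with sex added for Jun 0.073, Ier2 -0.046 and Ier3 -0.068; in females for Jun 0.42, Atf3 0.19, Ier2 -0.25 and Nr4a1 0.71; in males for Ier3 -0.16; in controls for Ier3 -0.085 and Myc 0.28; in iSOD2 mice for Ier2 -0.19; with exon length removed for Ier3 -0.039; and as the difference of mean log2 for Ier3 -0.012, overall and within genotype. Sex values of Fosb turned to 0.090 with the hepatocyte covariate, 0.72 with litter added and 1.56 within litter B.

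Without each mouse in turn, genotype values ran from -0.32 to 0.26 for Atf3, -0.61 to 0.23 for Fos, -0.18 to 0.032 for Junb and -0.46 to 0.25 for Nr4a1. Litter values ran from -0.019 to 0.28 for Ier2, -0.083 to 0.078 for Ier3 and -0.24 to 0.041 for Jun, and sex values from -0.77 to 0.24 for Fosb. Pearson's r with Fos ran from -0.32 to 0.087 for Ier3, -0.23 to 0.29 for Myc and -0.15 to 0.29 for total counts. Alternatives with subsets of mice, the hepatocyte covariate and exon length for litter and sex were chosen after seeing the data. At these depths the counts of Fosb limit its precision.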

Other observations

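Among the genes most like the mean z-score of the 10 members over the 10 hearts were Anapc5, a subunit of the anaphase-promoting complex (r = 0.93), Gm10635 (0.93), Nr3c2 (0.91), Cox6a2, the heart and muscle isoform of a cytochrome oxidase subunit (0.91), Rnf31 (0.91), Slc27a1, a fatty acid transporter (0.91), Pnpla2, a triglyceride lipase (0.91), Luc7l2 (0.90) and Irx4 (0.90). They were taken from the highest of 12151 genes, so these r describe a choice and carry no test. Each of those named had a higher mean in litter A than in litter B, such as Slc27a1 with 3232 and 2472 normalized counts and Pnpla2 with 4475 and 3806. The mean z-score was itself higher in every litter A heart than in every litter B heart, so this direction follows from the choice.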
